A study of Mus musculus with 22 samples.

Results

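In fibroblasts sorted from mouse back skin, 6 chosen CC chemokine genes were described: Ccl2, Ccl5, Ccl7, Ccl8, Ccl11 and Ccl19. Described with them were the 2 genes that encode ligands of the CSF1 receptor, Csf1 and Il34. Ccl5 was barely detected, with 4 to 34 counts in a library. These 8 genes were taken by symbol from a table of 55414 genes, of which 17554 had enough counts to be tested, and all 8 were among the tested genes. All mice had surgery, in which a path under the skin was opened from an incision near the tail towards the neck. EXP mice then received a hydrogel that expands and stretches the overlying skin, and CTRL mice received none, so both arms carried the wound. Libraries were made 1, 2 and 4 days later: day 1 has 4 CTRL and 5 EXP libraries, day 2 has 3 of each arm, and day 4 has 4 CTRL and 3 EXP libraries. The labels give neither strain, sex nor age, and they do not say that each library came from a different mouse, so p-values measure the spread between these libraries. Cells were sorted as live, CD34+ and PDGFRα+, and negative for CD31, CD45, CD117 and EpCAM.

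CC chemokines are small secreted proteins that bind seven-transmembrane receptors on leukocytes and draw these cells along a gradient. CCL2, CCL7 and CCL8 attract monocytes, CCL11 (eotaxin) attracts eosinophils, CCL5 attracts T cells and other leukocytes, and CCL19 attracts dendritic cells and lymphocytes that carry CCR7. CSF1 and IL-34 are unrelated in sequence but share the receptor CSF1R, through which they keep macrophages and, in the case of epidermal IL-34, Langerhans cells alive. Dermal fibroblasts are a known source of both kinds of signal in wounded skin.

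The name of the CC family comes from 2 neighbouring cysteines near the start of the mature protein. The stretches of 60 coding bases around these codons (GENCODE M21 transcripts) show how far the members have diverged outside them. Capitals mark the adjacent cysteine codons, which begin at codon 32 in Ccl8 and Ccl11, codon 33 in Ccl5, Ccl7 and Ccl19, and codon 34 in Ccl2. Ccl12 is not among the 8 genes and is shown because it lies between Ccl11 and Ccl8.
Ccl2: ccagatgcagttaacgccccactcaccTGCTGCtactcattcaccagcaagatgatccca
Ccl7: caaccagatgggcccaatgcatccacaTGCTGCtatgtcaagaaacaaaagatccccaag
Ccl8: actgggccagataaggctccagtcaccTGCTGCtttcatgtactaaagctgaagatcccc
Ccl11: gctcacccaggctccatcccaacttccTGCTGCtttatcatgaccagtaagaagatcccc
Ccl12: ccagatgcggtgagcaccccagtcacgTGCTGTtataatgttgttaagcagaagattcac
Ccl5: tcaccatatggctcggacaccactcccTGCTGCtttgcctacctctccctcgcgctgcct
Ccl19: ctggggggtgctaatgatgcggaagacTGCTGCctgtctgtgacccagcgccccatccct
Both codons were TGC in each of the 6 chemokines described here, while the second was TGT in Ccl12. Over the whole aligned coding sequence, with gaps counted as differences, the closest of the 6 were Ccl7 and Ccl11, with 66.3% identity. The lowest value, 37.5%, was that of Ccl2 and Ccl5. Their coding sequences differ in length (447 and 276 bases), so this value holds the difference in length as well as changed bases. The longest run of identical bases shared by transcripts of any 2 of them was 23 bases, between Ccl2 and Ccl7, against reads of 150 bases. In the order of genes along chromosome 11, Ccl2, Ccl7, Ccl11, Ccl12 and Ccl8 follow each other, Ccl5 lies further along the same chromosome, and Ccl19, Csf1 and Il34 lie on chromosomes 4, 3 and 8.

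Library totals ran from 21461294 to 30210204 counts. In the sorted cells the level of Pdgfra was 225 to 1020 CPM (counts scaled by the TMM-adjusted library total) and that of Cd34 was 215 to 2340 CPM. Of the genes for surface markers that the sort excluded, Pecam1 (CD31) reached 3.73 CPM in its highest library, Epcam 2.07, Kit (CD117) 0.687 and Ptprc (CD45) 0.246. A set of 191 genes that varied together with Rnf10 put 7 libraries apart from the other 15: 3 day 1 CTRL, 2 day 1 EXP and 2 day 4 CTRL libraries were on the high side. Beside the calls of days 1 and 4, values are therefore also given within 1 side of this split. Each level is an average over a sorted population, in which fewer expressing cells and less RNA per cell cannot be told apart.

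Per kilobase of transcript, Ccl7 and Ccl2 stood far above the other members. Over the 22 libraries the mean level of Ccl7 was 2076 CPM per kilobase, which ranked 18 among 17439 tested genes with a known length, and that of Ccl2 was 1449 CPM per kilobase, ranked 28. Ccl8 followed with 286 CPM per kilobase, Csf1 with 134, Ccl11 with 110.2 and Ccl19 with 108. Il34 had 16.7 CPM per kilobase. Ccl5 was the lowest, with 1.24 CPM per kilobase and 4 to 34 counts in a library, where 3 counts were taken as the floor of detection.

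**Figure D1:**
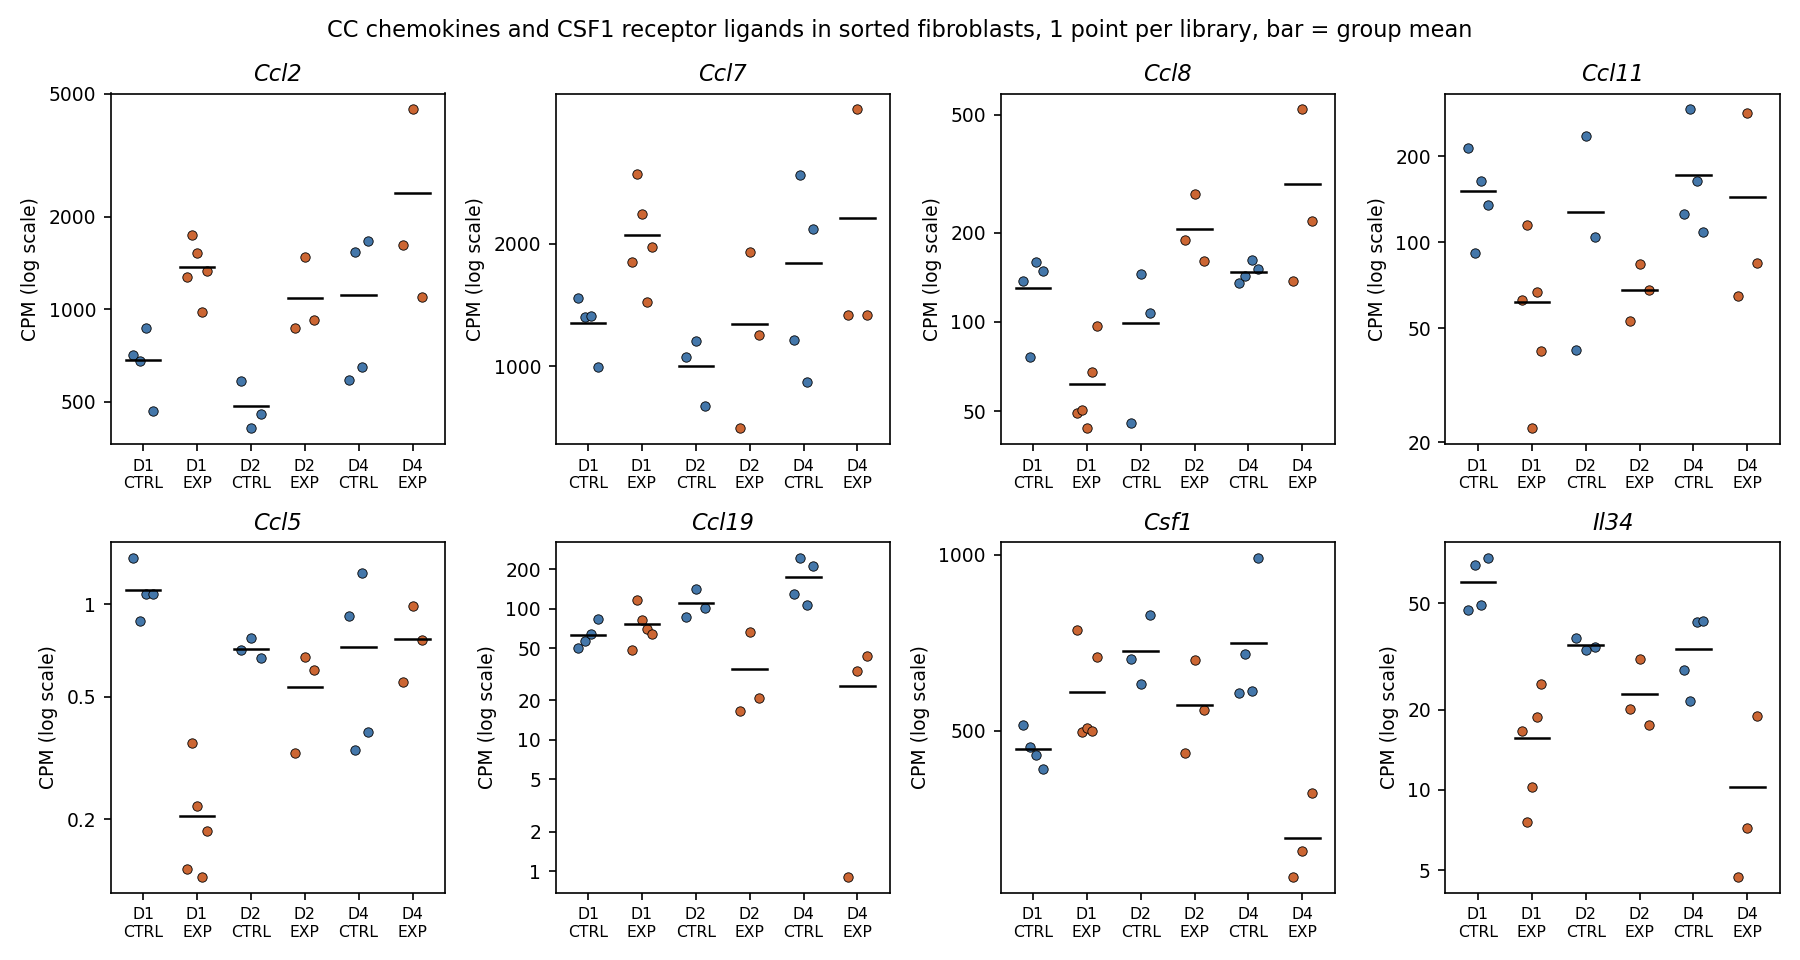
Level of each of the 8 genes in each library, as CPM on a log axis that differs between panels (CTRL blue, EXP orange, black bar for the group mean). Ccl2 EXP points lie above all CTRL points on days 1 and 2, Csf1 EXP points lie below all CTRL points on day 4, and Il34 EXP points lie below them on all 3 days.

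EXP was compared with CTRL on each day with edgeR's quasi-likelihood test over all tested genes and libraries, with Benjamini-Hochberg adjustment, and calls required an adjusted p below 0.05. All adjusted p below come from that fit unless another is named. On day 1, 4 of the 8 genes were called, against 28.5% of all tested genes: Ccl2 was higher in EXP (13.6% of all genes were), and Ccl5, Ccl8 and Il34 were lower (14.9% of all genes were). On day 2, 0 of 8 were called, against 13.5% of all genes (7.85% higher and 5.62% lower), with 3 at an unadjusted p under 0.05 (Ccl2, Ccl8 and Ccl19) and 0 called by DESeq2. On day 4, 3 of 8 were called, against 22.6% of all genes, and all 3 were lower in EXP, as were 8.96% of all genes: Ccl19, Csf1 and Il34. Their median log2 fold change was -0.41 on day 1, -0.36 on day 2 and -0.09 on day 4, where the medians of all tested genes were 0.01, 0.03 and 0.06.

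The effect of the expander differed between days for 3 of the 8 genes, Ccl5, Ccl8 and Csf1, against 8.64% of all tested genes. The same 3 changed over days within EXP, against 14.1% of genes, although the call on Ccl5 was lost without 4 of the 11 EXP libraries in turn (highest adjusted p 0.0825) and without the count filter (0.0898). Within CTRL, 0 of the 8 changed over days, against 0.302% of genes, with 2 at an unadjusted p under 0.05 (Ccl2 and Csf1) and 0 called by DESeq2.

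**Figure D2:**
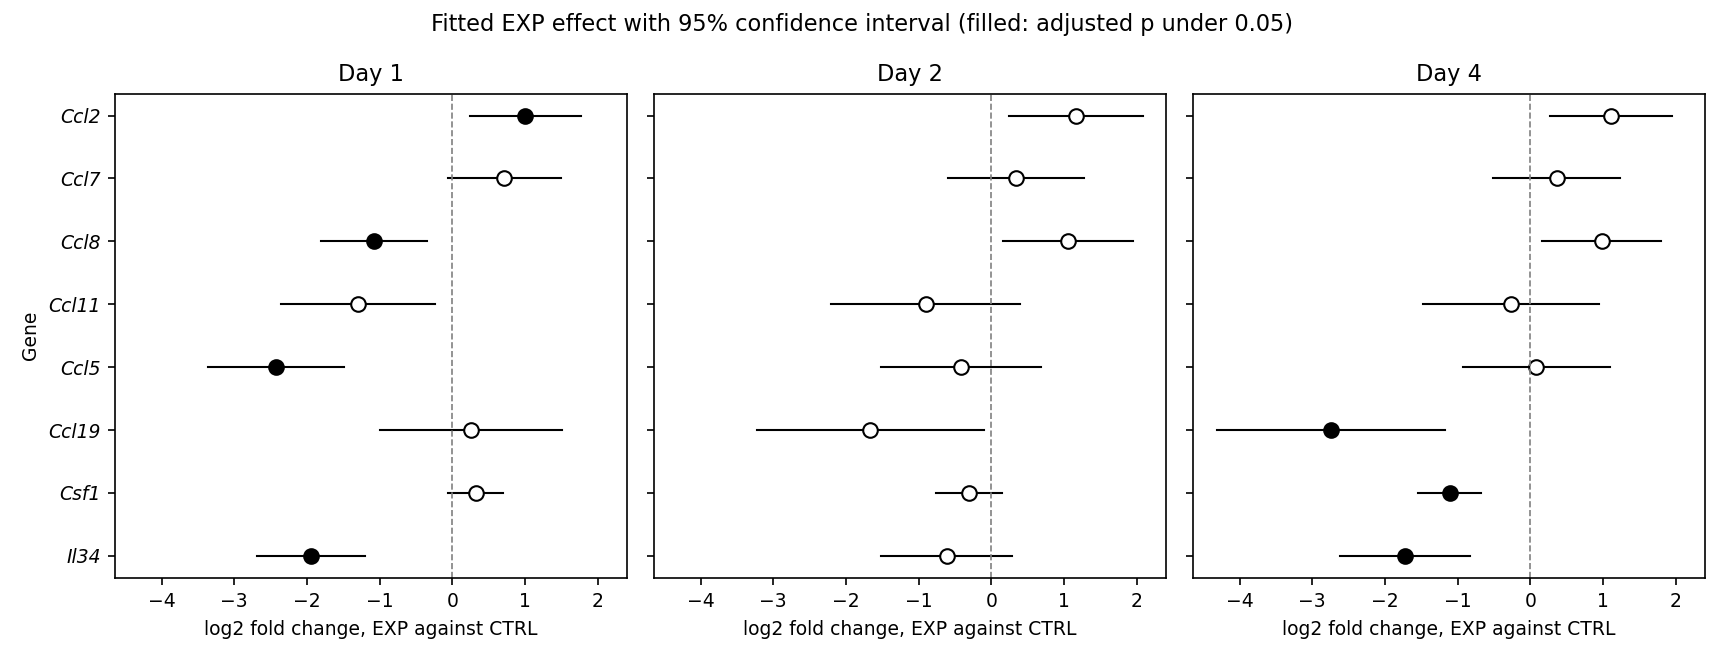
Fitted log2 fold change of EXP against CTRL on each day, with its 95% confidence interval, for the 8 genes, and filled points for an adjusted p under 0.05. The filled points are Ccl2, Ccl8, Ccl5 and Il34 on day 1 and Ccl19, Csf1 and Il34 on day 4, and Ccl8 lies left of 0 on day 1 and right of it on days 2 and 4.

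Ccl2 encodes the main ligand of CCR2, the receptor by which classical monocytes leave the blood. On day 1 its level was 712, 680.2, 868 and 469 CPM in the CTRL libraries and 1268, 1747, 1526, 979.5 and 1332 CPM in the EXP libraries. All 5 EXP libraries lay above all CTRL libraries, which 11.4% of tested genes did on that day. The fitted difference was a log2 fold change of 1.01 ± 0.36 (SE), a fold of 2.01, with an adjusted p of 0.0436. This call is fragile. It was lost without 7 of the 9 day 1 libraries in turn (highest adjusted p 0.12), without the filter on low counts (0.12) and within the high side of the library split (0.0835), where the log2 fold change was again 1.01.

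On day 2 Ccl2 stood at 586, 411 and 458 CPM in CTRL and at 866, 1476.5 and 921 CPM in EXP. These 2 groups also did not overlap, and 21.2% of tested genes lay above CTRL in this way on day 2. The log2 fold change was 1.17 ± 0.44, and its adjusted p of 0.0838 missed the threshold, although it passed with library totals in place of TMM (0.0107) and when day 2 libraries were fitted alone (0.00911).

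By day 4 the arms overlapped. Ccl2 had 588, 1532, 651 and 1671 CPM in CTRL and 1622, 4453 and 1099.8 CPM in EXP. The EXP replicate 2 library held the highest value of all 22, and the CTRL libraries fell into a lower and a higher pair. The log2 fold change was 1.11 ± 0.40 (adjusted p = 0.053), and it was 0.29 (adjusted p = 0.643) without EXP replicate 2. DESeq2 called the day 4 difference (adjusted p = 0.036). The edgeR fit called it without 3 of the 7 day 4 libraries in turn (lowest adjusted p 0.0111). The effect on Ccl2 did not differ detectably between days (adjusted p = 0.979), and in the order of the 6 group means, from day 4 EXP (2392 CPM) down to day 2 CTRL (485 CPM), all neighbours overlapped. For the other chemokines, too, every group overlapped the next in order of its mean: the highest and lowest were day 4 EXP and day 2 CTRL for Ccl7, day 4 EXP and day 1 EXP for Ccl8, day 4 CTRL and day 1 EXP for Ccl11, day 1 CTRL and day 1 EXP for Ccl5, and day 4 CTRL and day 4 EXP for Ccl19.

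Ccl7 encodes MCP-3, another CCR2 ligand, and its gene lies next to Ccl2. Day 1 levels were 1469.9, 1324, 1331 and 993 CPM in CTRL and 1801, 2966, 2358, 1438 and 1961 CPM in EXP. Only EXP replicate 4 fell inside the CTRL range. The log2 fold change was 0.72 ± 0.37 with an adjusted p of 0.159, and it passed the threshold when the day 1 libraries were fitted alone (0.0237).
Differences on the later days were smaller than their spread. The day 2 levels were 1055, 1150.4 and 799.6 CPM in CTRL and 704, 1903 and 1193 CPM in EXP, a log2 fold change of 0.34 ± 0.45 (adjusted p = 0.676). On day 4 they were 1159, 2946, 913 and 2169.7 CPM in CTRL and 1336, 4268 and 1338 CPM in EXP, a log2 fold change of 0.37 ± 0.42 (adjusted p = 0.563). The sign turned on day 4 without EXP replicate 2 (-0.43) and on day 2 without EXP replicate 2 (-0.08).

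The pair varied together from library to library. Across the 22 libraries the log2 CPM of Ccl2 and Ccl7 had a Pearson correlation of 0.845, and of 0.891 once the group means were removed, as a description of libraries that share their scaling. Ccl2 with Ccl8, which lies further along the same run of genes, gave 0.238, and Ccl8 with Ccl11 gave 0.561. Among tested genes with at least 5 CPM, Ccl7, Csf2 (0.83) and Katnbl1 (0.821) were most like Ccl2 over the 22 libraries, and Ccl2, Eif4e (0.806) and Nudt4 (0.775) were most like Ccl7.

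Ccl8 encodes MCP-2, which draws monocytes and, in mouse skin, T cells through CCR8, and its day 1 difference ran opposite to that of Ccl2. On day 1 it stood at 137, 76.2, 159 and 149 CPM in CTRL and at 49.3, 50.5, 43.8, 68.1 and 96.8 CPM in EXP. Only EXP replicate 5 reached into the CTRL range, above CTRL replicate 2. The log2 fold change was -1.08 ± 0.35, 2.12-fold lower in EXP, with an adjusted p of 0.0249. It lost its call without 6 of the 9 day 1 libraries in turn (highest adjusted p 0.0716), with library totals (0.0582) and without the count filter (0.0728), and held within the high side of the split (-1.32, adjusted p = 0.0184).

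The sign was positive on the later days. Day 2 levels of Ccl8 were 45.5, 145 and 107 CPM in CTRL and 189, 269 and 159.9 CPM in EXP. All 3 EXP libraries lay above the CTRL libraries, as did 21.2% of tested genes on that day. The log2 fold change was 1.06 ± 0.43 (adjusted p = 0.109). On day 4 Ccl8 had 136, 143, 162 and 151 CPM in CTRL and 137, 520.03 and 219 CPM in EXP. The 4 CTRL libraries were close together and the EXP libraries spread from the bottom of their range to well above it, for a log2 fold change of 0.98 ± 0.40 (adjusted p = 0.078). Without EXP replicate 2 it was 0.27 (adjusted p = 0.684).
The change of effect between days was called (adjusted p = 0.0186), and so was the change over days within EXP, with means of 61.7 CPM on day 1, 206 on day 2 and 292 on day 4 (adjusted p = 0.00123). The day 4 mean rests on EXP replicate 2, the other 2 libraries having 137 and 219 CPM, within or near the day 2 range. The call between days was lost without the count filter (0.0538), and it held without each library in turn (highest adjusted p 0.0463). Within CTRL the change over days had an adjusted p of 0.697. Sdc2 (0.807), Il3ra (0.798) and Mup10 (0.786) had the highest correlations with Ccl8.

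Ccl11 encodes eotaxin-1, the CCR3 ligand that recruits eosinophils. Day 1 levels were 213, 91.9, 164 and 135 CPM in CTRL and 62.9, 115, 22.4, 67.1 and 41.8 CPM in EXP. Of the EXP libraries 4 lay below all CTRL libraries, and replicate 2 lay inside the CTRL range. The log2 fold change of -1.29 ± 0.51 missed the threshold (adjusted p = 0.0626), which DESeq2 passed (0.0249).
Later values overlapped throughout. Day 2 libraries held 42.2, 235 and 105 CPM in CTRL and 53.1, 83.7 and 67.9 CPM in EXP (log2 fold change -0.90 ± 0.62, adjusted p = 0.369). Day 4 libraries held 126, 291, 164 and 109 CPM in CTRL and 64.9, 282 and 84.96 CPM in EXP (log2 fold change -0.26 ± 0.58, adjusted p = 0.784). Its sign on day 4 turned without any 1 of 3 libraries. Pi16 (0.787), a marker of adventitial fibroblasts, Naalad2 (0.773) and Fam171a1 (0.743) were most like Ccl11.

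Ccl5 encodes RANTES and had few counts everywhere, closest to the floor of 3 counts in day 1 EXP. The day 1 CTRL libraries had 34, 21, 30 and 28 counts, which is 1.41, 0.885, 1.08 and 1.08 CPM. The EXP libraries had 4, 9, 6, 4 and 5 counts, which is 0.137, 0.353, 0.22012, 0.13 and 0.183 CPM. No EXP library reached the lowest CTRL library, as in 12.5% of tested genes on day 1, and Ccl5 was 5.38-fold lower in EXP (log2 fold change -2.43 ± 0.45, adjusted p = 4.98e-04). The call held without each library in turn and was lost within the high side of the split, where the log2 fold change was -2.18 (adjusted p = 0.0958).
On day 2 it had 0.707, 0.775 and 0.67049 CPM in CTRL and 0.329, 0.674 and 0.61039 CPM in EXP (log2 fold change -0.42 ± 0.53, adjusted p = 0.66). On day 4 it had 0.918, 0.337, 1.26 and 0.383 CPM in CTRL and 0.5598, 0.984 and 0.765 CPM in EXP (log2 fold change 0.08 ± 0.49, adjusted p = 0.923). The effect differed between days (adjusted p = 0.0348), a call that was lost without 12 of the 22 libraries in turn (highest adjusted p 0.0789) and without the count filter (0.119).

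Ccl19, which guides CCR7-bearing dendritic cells and lymphocytes, has near-identical copies in the mouse genome, so its counts are uncertain. The first 90 bases of its coding sequence and of 3 annotated copies are printed to show this, with capitals for bases that differ from Ccl19. The last 2 start at base 4 of the Ccl19 coding sequence, where their alignment begins.
Ccl19: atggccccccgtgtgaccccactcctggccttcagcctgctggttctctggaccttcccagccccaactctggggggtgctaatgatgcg
Ccl19-ps1: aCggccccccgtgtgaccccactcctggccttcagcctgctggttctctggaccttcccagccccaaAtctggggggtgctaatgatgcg
Ccl19-ps3: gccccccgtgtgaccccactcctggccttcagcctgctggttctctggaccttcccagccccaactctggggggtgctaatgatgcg
Gm12407: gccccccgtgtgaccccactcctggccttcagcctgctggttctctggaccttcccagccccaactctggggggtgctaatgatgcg
Counted from base 1 of the Ccl19 coding sequence, with the Ccl19 base first, Ccl19-ps1 carries T2C, C68A, C118T and A267C over 327 bases (98.8% identity). Gm12407 carries C198T and G224C over 324 aligned bases (99.4% identity), and Ccl19-ps3 has no difference over 324 bases. The counts assigned to Ccl19 were 26.0% to 44.4% of those summed over the 4 genes. The gene most like Ccl19 over the 22 libraries was an identifier without a symbol (0.994), followed by Ccl19-ps3 (0.992) and Gm12407 (0.99). Whether that identifier is a further copy was not examined, and it is not among the 4 genes. A second M21 gene with the name Ccl19 is not among them either. The share and the sum may therefore leave out further copies.

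With this limit, day 1 levels of Ccl19 overlapped, at 49.8, 56.9, 63.5 and 82.9 CPM in CTRL and 48.3, 116, 82.1, 70.1 and 63.5 CPM in EXP (log2 fold change 0.26 ± 0.60, adjusted p = 0.779). On day 2 they were 86.7, 142 and 101 CPM in CTRL and 16.7, 66.3 and 20.8 CPM in EXP. All 3 EXP libraries lay below CTRL, as did 18.1% of tested genes on that day, and the log2 fold change of -1.67 ± 0.75 had an adjusted p of 0.148.
On day 4 Ccl19 had 129, 243, 107 and 212 CPM in CTRL and 0.906, 33.3 and 43.3 CPM in EXP. All EXP libraries lay below all CTRL libraries, as in 10.8% of tested genes, and EXP replicate 1 held only 34 counts. The difference was 6.70-fold (log2 fold change -2.74 ± 0.75, adjusted p = 0.0149), and it was -2.21 at its smallest without each library in turn (highest adjusted p 0.0474). The call was lost within the low side of the library split (-2.85, adjusted p = 0.108) and with day 4 libraries fitted alone (0.105). Summed with its 3 copies, the day 4 log2 fold change was -2.80 ± 0.70 (adjusted p = 0.0091), from a mean of 484 ± 185 CPM (SD, n = 4) in CTRL to 69.6 ± 63.1 CPM (SD, n = 3) in EXP. The effect on Ccl19 was not called as differing between days (adjusted p = 0.0982).

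**Figure D3:**
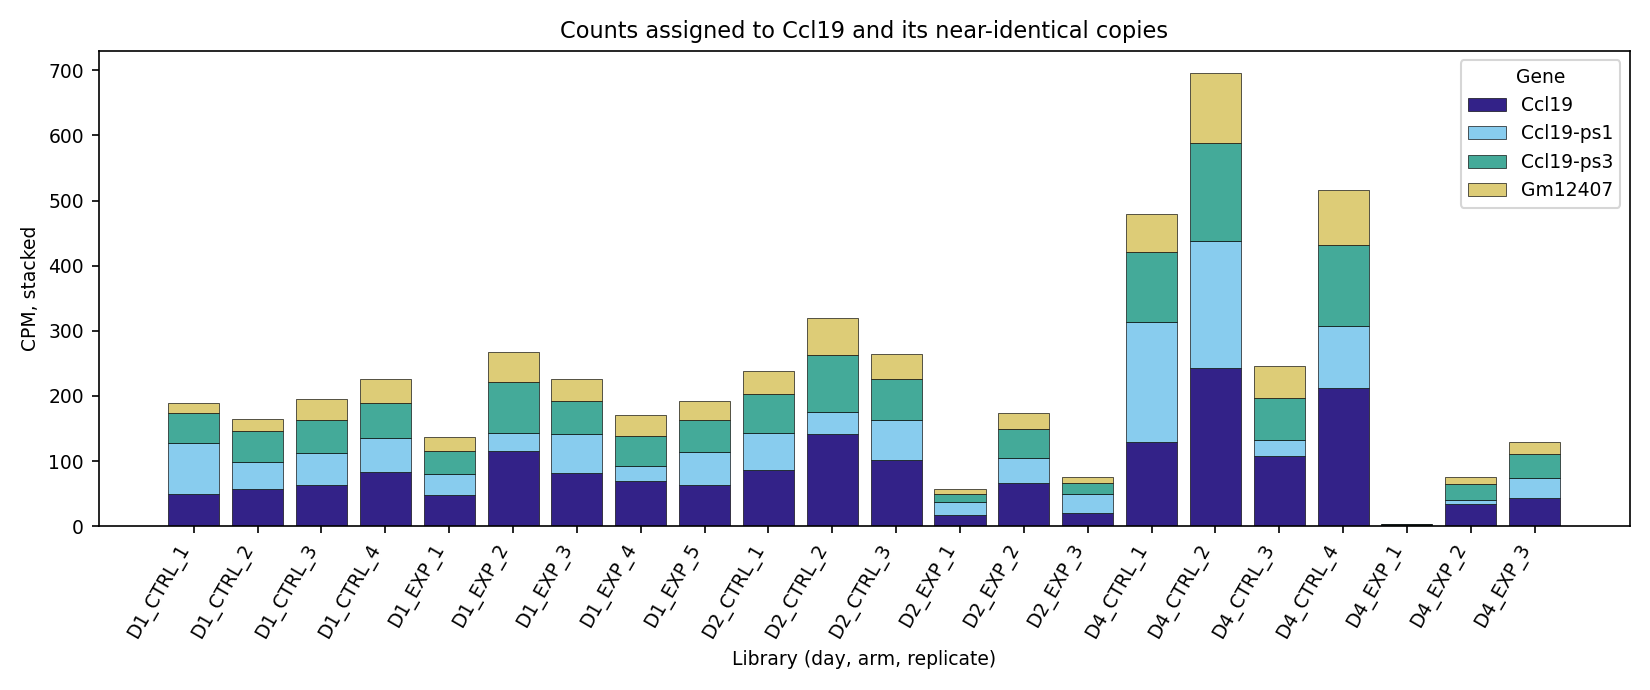
CPM assigned to Ccl19 and to 3 near-identical copies in each of the 22 libraries, stacked. The total is lowest in day 4 EXP replicate 1 (3.49 CPM) and highest among the day 4 CTRL libraries (695 CPM), and Ccl19 itself holds at most 44.4% of a bar.

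Csf1 encodes the growth factor on which most tissue macrophages depend. On day 1 its level was 510.3, 468, 454 and 429 CPM in CTRL and 743, 497, 505, 499.7 and 669 CPM in EXP. EXP replicates 2, 3 and 4 lay inside the CTRL range, just under its top, and replicates 1 and 5 lay above it. The log2 fold change was 0.32 ± 0.18 (adjusted p = 0.191). It passed the threshold with library totals (0.52, adjusted p = 0.025), a scaling that moved the median of all tested genes to 0.21 on that day.
Day 2 values overlapped, at 663, 601 and 789.6 CPM in CTRL and 457, 661 and 543 CPM in EXP (log2 fold change -0.31 ± 0.22, adjusted p = 0.386). On day 4 Csf1 stood at 581, 676, 583 and 988 CPM in CTRL and at 281, 311 and 390.2 CPM in EXP. Every EXP library lay below every CTRL library, as in 10.8% of tested genes on that day. The difference was 2.16-fold (log2 fold change -1.11 ± 0.21, adjusted p = 0.0016). This call held under every alternative run, with an adjusted p of at most 0.0437, including the low side of the library split (-0.94, adjusted p = 0.0284).
The effect on Csf1 differed between days (adjusted p = 0.00858), without each library in turn as well (highest adjusted p 0.0256). Day 4 EXP had the lowest group mean (327 ± 56.5 CPM, SD, n = 3) and did not overlap day 1 CTRL, the next in order (466 ± 33.9 CPM, SD, n = 4). Within EXP the change over days had an adjusted p of 0.0191, which missed the threshold without day 4 EXP replicate 1 (0.071) or replicate 2 (0.0894). Tnip2 (0.891), which encodes an inhibitor of NF-kB signalling, Rusc2 (0.881) and Dtx2 (0.873) were most like Csf1.

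Il34 was lower in every EXP library than in every CTRL library of the same day. Of all tested genes, 12.5%, 18.1% and 10.8% lay below CTRL in this way on days 1, 2 and 4. On day 1 it had 47.3, 69.5, 49.5 and 74.1 CPM in CTRL and 16.7, 7.60, 10.2, 18.8 and 24.9 CPM in EXP. All 5 EXP libraries lay well below the lowest CTRL library. The difference was 3.84-fold (log2 fold change -1.94 ± 0.36, adjusted p = 5.14e-04), and it was called under every alternative run, with -2.20 (adjusted p = 0.00433) within the high side of the split.
On day 2 the levels were 37.2, 33.5 and 34.2 CPM in CTRL and 20.1, 30.9 and 17.5 CPM in EXP. The groups did not overlap, but the log2 fold change of -0.62 ± 0.43 was not called (adjusted p = 0.376). On day 4 they were 28.1, 21.6, 42.6 and 43.006 CPM in CTRL and 4.72, 7.17 and 18.9 CPM in EXP. EXP replicate 3 came near the lowest CTRL library, and the other 2 EXP libraries lay well below it. The difference was 3.30-fold (log2 fold change -1.72 ± 0.43, adjusted p = 0.00842). It missed the threshold without EXP replicate 2 (0.052), with day 4 libraries fitted alone (0.0645) and within the low side of the split (-1.28, adjusted p = 0.117).
The effect on Il34 was not called as differing between days (adjusted p = 0.242). Day 1 CTRL had the highest group mean, 60.1 ± 13.7 CPM (SD, n = 4), and did not overlap the next group, day 2 CTRL (34.97 ± 2.00, SD, n = 3). In M21, exons of Gm15894 and Gm15895 overlap Il34 on the other strand, and how the counts treat strand is not given in the sources used here. Rnpep (0.923), Bmp4 (0.915), which encodes a morphogen of the dermis, and Cys1 (0.911) were most like Il34.

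Markers of other cell types were read beside these values. Of 12 macrophage and monocyte markers, Csf1r was the highest, at 57.4 ± 23.8 CPM in day 1 CTRL and 26.4 ± 9.05 in day 1 EXP (SD, n = 4 and 5), and the remaining 11 summed to 17.97 to 98.7 CPM in a library. Most of that remainder was Cd14 and Cd68, which fibroblasts can also express. Ptprc (CD45) and Itgam reached at most 7 counts in a library, Adgre1 (F4/80) at most 6 and Ccr2 at most 7. The sum of the 11 was 27.5 ± 4.10 CPM in CTRL and 52.1 ± 11.6 in EXP on day 1, 28.03 ± 7.15 and 66.7 ± 31.5 on day 2, and 21.5 ± 6.14 and 48.4 ± 9.48 on day 4. The arms did not overlap on days 1 and 4, and their ranges touched on day 2 (up to 36.2 in CTRL and from 35.8 in EXP). Csf1r, the receptor for CSF1 and IL-34, was itself lower in EXP on day 1 (log2 fold change -1.12, adjusted p = 0.0188) and was not called on day 2 (-1.18, adjusted p = 0.0689) or day 4 (-0.54, adjusted p = 0.341).

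**Figure D4:**
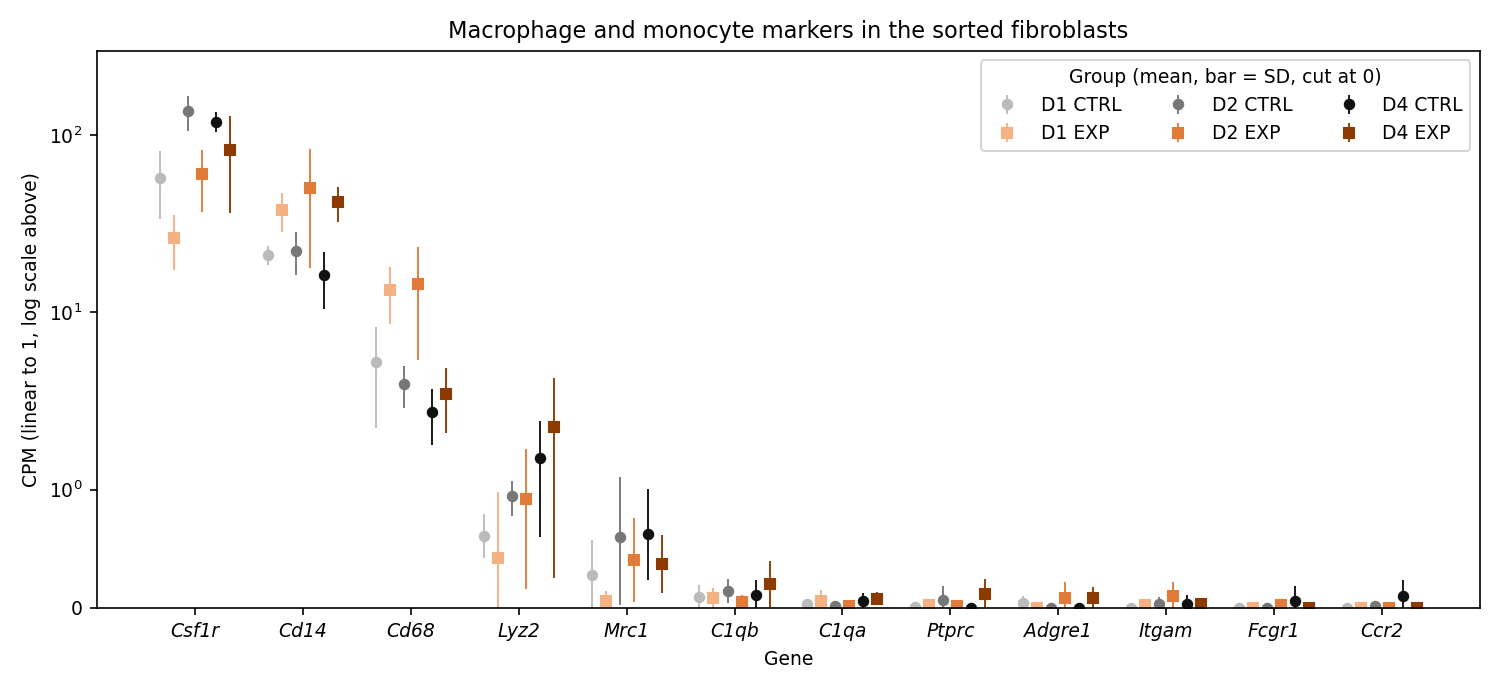
Mean level of 12 macrophage and monocyte markers in each group, in CPM, with bars for the SD (axis linear up to 1 CPM and logarithmic above). Csf1r, Cd14 and Cd68 carry nearly all of the signal, and Ptprc, Adgre1, Itgam, Fcgr1 and Ccr2 lie near 0 in all 6 groups.

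Beside the day 4 values of Ccl19, Csf1 and Il34, sums of several other marker lists were higher in every EXP library than in any CTRL library. Adipocyte markers summed to 1.79 to 349 CPM in EXP and 0.126 to 1.11 CPM in CTRL, with Cfd highest, and all 4 that could be tested were called. Endothelial markers summed to 24.0 to 55.7 against 4.08 to 10.97 CPM, mostly Tek, while Pecam1 and Cdh5 stayed low. Only 1 of 5 tested was called, near the 13.6% of all tested genes that were higher on day 4. T and NK cell markers summed to 13.9 to 29.4 against 0.295 to 6.81 CPM, mostly Cd3e, and the 2 of 6 that could be tested were called, with Cd3d at most 2 counts and Trac at most 3. Mast cell and eosinophil markers (0.3199 to 0.5102 against 0 to 0.2898 CPM) and Schwann cell markers (1.706 to 3.83 against 0.9262 to 1.702 CPM) did so at low levels. On day 2 the endothelial sums were 2.10 to 7.44 CPM in EXP and 0.505 to 0.775 in CTRL, those of T and NK cell markers 5.395 to 8.088 and 2.17 to 4.597, and those of adipocyte markers 2.48 to 53.5 and 0 to 2.479. On day 1, 2 of 6 keratinocyte markers were lower in EXP, as were 14.9% of all tested genes. The keratinocyte sums were 2.13 to 13.6 CPM in EXP against 7.29 to 44.1 CPM in CTRL. Fibroblast markers, mostly Col1a1, Col1a2 and Col3a1, summed to 95320 to 165900 CPM in EXP and 211900 to 282300 in CTRL on day 1, to 67780 to 172500 and 324800 to 414400 on day 2, and to 82820 to 285900 and 262200 to 368900 on day 4. Of these 8 markers 4, 5 and 2 were lower in EXP on days 1, 2 and 4, as were 14.9%, 5.62% and 8.96% of all tested genes. The genes of the positive sort markers went opposite ways. Pdgfra was higher on each day (log2 fold changes 0.84, 1.71 and 0.81, adjusted p = 0.0159, 0.00128 and 0.0415). Cd34 was lower on day 1 (-1.76, adjusted p = 7.02e-04) and day 2 (-2.06, adjusted p = 0.00375) and was not called on day 4 (-0.90, adjusted p = 0.103). Thy1 was not called on any day (-0.16, -0.39 and -0.28). The part of these cells in the results was not tested.

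Neutrophil, dendritic cell, lymphatic, mast cell and Schwann cell markers were low in all libraries, and their summed lists reached at most 5.19, 7.83, 5.68, 1.09 and 3.83 CPM in a library. Melanocyte markers reached 37.3 CPM, with Mlana highest, and pericyte and smooth muscle markers 46.03 CPM. At these low levels some markers moved with the arm: S100a8, a neutrophil gene, was higher in EXP on all 3 days (adjusted p = 0.0132, 0.0167 and 0.00891, at most 125 counts in a library), the dendritic cell gene Xcr1 on days 2 (0.0105) and 4 (0.0155), and Zbtb46 on day 1 (0.028). Acta2, of smooth muscle, was higher on days 2 (0.0247) and 4 (0.0249). Other markers of these lists were lower in EXP. In the pericyte and smooth muscle list these were Cspg4 on day 1 (0.00743) and Des on day 2 (0.0224). The melanocyte gene Tyrp1 was lower on days 2 (0.0118) and 4 (0.00514), and the Schwann cell gene S100b on day 1 (0.0158). Their part in the results was also not tested.

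Other CC chemokine genes were little expressed. Of 15, only 7 had enough counts to be tested. None was called on day 1 and 1 was higher on day 2, with median log2 fold changes over the tested genes of 0.49 and 1.06. Of all tested genes, 28.5% and 13.5% were called on these days, so the count on day 2 was near that of all genes. On day 4, 13.6% of all tested genes were higher. On day 4, 3 were higher (median 0.31), and only 1 of these 3 had a mean of at least 1 CPM: Ccl9, a CCR1 ligand, which rose from 2.60 ± 1.30 CPM in CTRL to 15.1 ± 9.46 CPM in EXP (SD, n = 4 and 3), a log2 fold change of 2.54 ± 0.58 (adjusted p = 0.00538).

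The receptors of these ligands had few or no counts in the sorted cells. Of 10 CC receptor genes only Ccr9 was tested and it was not called on any day. Ccr1, Ccr2 and Ccr3, which bind members described here, reached at most 5, 7 and 10 counts in a library, and Ccr7, the receptor of CCL19, at most 5.

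Genes listed for chemokine binding, scavenging or processing were called in both directions. Of 10 such genes, all tested, 2 were higher and 1 lower on day 1, 1 higher and 3 lower on day 2, and 2 higher and 2 lower on day 4, with medians of 0.16, -0.71 and -0.71. These are 3, 4 and 4 of 10 called, where 28.5%, 13.5% and 22.6% of all tested genes were, so the count on day 1 was near that of all genes. Dpp4, a peptidase that shortens the amino end of several chemokines, fell from 207 ± 68.3 to 41.4 ± 14.7 CPM on day 1 (log2 fold change -2.32 ± 0.25, adjusted p = 5.23e-06) and was also lower on day 2 (-1.66 ± 0.31, adjusted p = 0.00171). Ackr2, a scavenger of inflammatory CC chemokines, was lower on day 4 at 13.2 ± 10.3 against 49.5 ± 24.6 CPM (-1.91 ± 0.44, adjusted p = 0.00551), and so was Ccrl2 (-1.52 ± 0.39, adjusted p = 0.0102). Ackr1 was lower on day 2 (-1.87 ± 0.52, adjusted p = 0.0226). Mmp12, a protease that cleaves chemokines, rose on all 3 days, on day 4 from 0.169 ± 0.179 to 3.85 ± 0.214 CPM (adjusted p = 0.00592), and Sdc4, which binds chemokines on heparan sulfate, rose on day 1 (0.82 ± 0.25, adjusted p = 0.0194).

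The genes of 2 other colony-stimulating factors, Csf2 and Csf3, were higher in EXP on all 3 days. Of 7 genes in that list 6 were tested, with 3 higher and 2 lower on day 1, 2 higher and 1 lower on day 2, and 2 higher and 0 lower on day 4 (medians 0.69, -1.16 and 0.39). Among all tested genes, 13.6%, 7.85% and 13.6% were higher on days 1, 2 and 4, and 14.9%, 5.62% and 8.96% were lower. Csf3, which encodes the neutrophil growth factor G-CSF, rose on each day, on day 4 from 1.15 ± 0.9001 to 204 ± 150.1 CPM (log2 fold change 7.48 ± 1.04, adjusted p = 2.57e-04). Csf2, which encodes GM-CSF, rose as well, on day 4 from 0.569 ± 0.579 to 83.9 ± 110.8 CPM (7.18 ± 1.10, adjusted p = 4.04e-04). Csf2ra, a subunit of the GM-CSF receptor, fell on day 1 (-1.28 ± 0.37, adjusted p = 0.0123) and day 2 (-1.36 ± 0.45, adjusted p = 0.0471).

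Among receptors whose ligands are known to induce chemokines, Il1r1 was higher and Ifngr1 lower in EXP on all 3 days. Of 18, all tested, 6 were higher and 3 lower on day 1, 4 higher and 1 lower on day 2, and 1 higher and 3 lower on day 4, with medians of 0.14, 0.23 and -0.03. The 4 of 18 called on day 4 were near the 22.6% of all genes, against 9 of 18 on day 1 (28.5% of all genes) and 5 of 18 on day 2 (13.5%). Il1r1, the signalling receptor of IL-1, rose on each day, from 174 ± 38.6 to 432 ± 76.7 CPM on day 1 (log2 fold change 1.31 ± 0.21, adjusted p = 1.60e-04). Ifngr1, a chain of the interferon gamma receptor, fell on each day, from 369.5 ± 74.01 to 186 ± 19.5 CPM on day 1 (-0.99 ± 0.17, adjusted p = 2.05e-04). Il13ra1 rose on day 1 (0.91 ± 0.16, adjusted p = 2.67e-04) and day 2 (0.96 ± 0.19, adjusted p = 0.0026), Osmr on day 2 (0.99 ± 0.23, adjusted p = 0.00756), and Tlr2 fell on day 4 (-1.48 ± 0.38, adjusted p = 0.00994).

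Of the transcription factors and inhibitors that act below these receptors, 11 of 17 were called lower in EXP on day 4, where 8.96% of all genes were. Of these 17 NF-kB, STAT, IRF and C/EBP genes, all tested, 3 were higher and 2 lower on day 1, 0 higher and 2 lower on day 2, and 0 higher and 11 lower on day 4, with medians of 0.10, -0.46 and -0.71. The counts on days 1 and 2 were near those of all genes (28.5% and 13.5%). Nfkb1 rose on day 1, from 71.5 ± 15.1 to 184.5 ± 66.2 CPM (log2 fold change 1.37 ± 0.26, adjusted p = 5.71e-04). Irf1, an interferon-induced activator, fell on all 3 days, on day 4 from 345 ± 47.2 to 115 ± 70.7 CPM (-1.58 ± 0.29, adjusted p = 0.00114). Rel (-1.04 ± 0.19, adjusted p = 0.0014) and Cebpd (-4.12 ± 0.85, adjusted p = 0.00312) fell on day 4. In M21, Irf1, Cebpd, Csf2, Dpp4, Mmp12 and Csf1r overlap an exon on the other strand, and Ackr1 one on the same strand. Of the markers and receptors named above, Cd3e, Cd34 and Des overlap one on the other strand. Col3a1 and Itgam overlap one on the same strand, and Pdgfra and Ccr9 overlap exons on both strands. The counts of all these genes may hold reads of another gene.

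**Figure D5:**
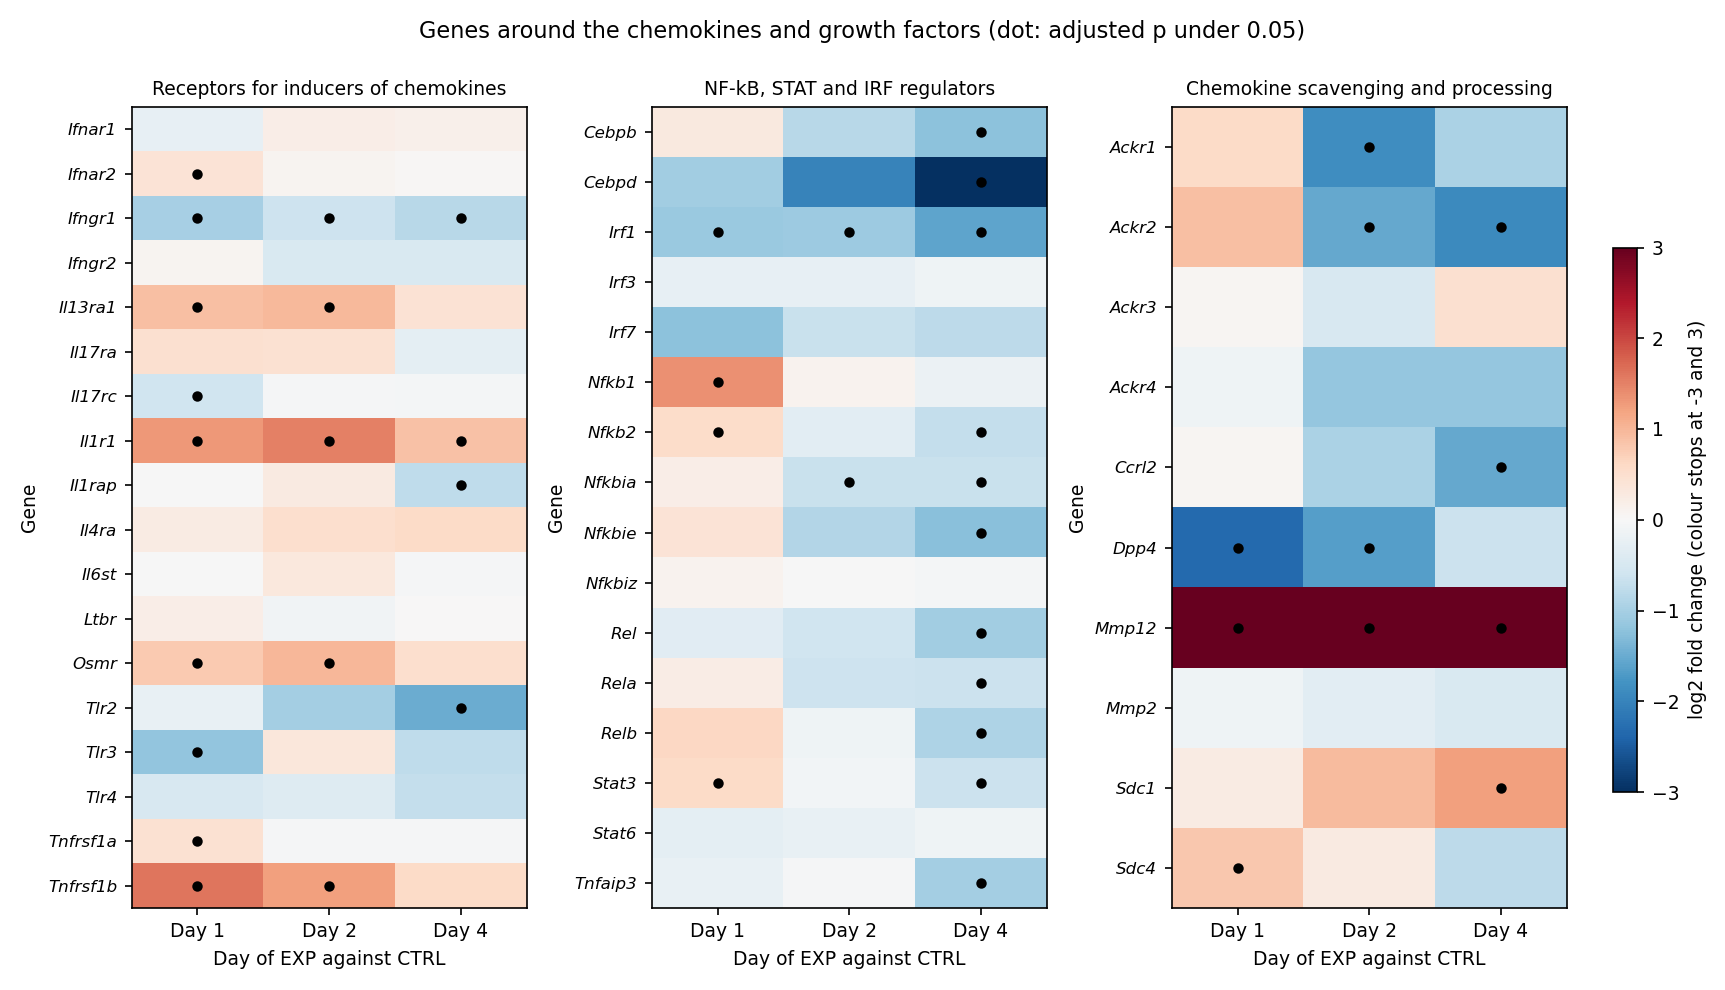
Log2 fold change of EXP against CTRL on days 1, 2 and 4 (red higher in EXP, blue lower, dots for an adjusted p under 0.05). Shown are 18 receptors of chemokine inducers, 16 of the 17 transcriptional regulators and 10 genes of chemokine binding, scavenging or processing. In the middle panel 11 of the 16 genes shown carry a dot on day 4, all blue, and Il1r1 is red and Ifngr1 blue on all 3 days.

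Promoter sequences from RefSeq (build GRCm38.p6) were at hand for 3 of the 8 genes. The 250 bases before the start of Csf1 (chr3:107760470-107760719, minus strand) and of Ccl19 (chr4:42756366-42756615, minus strand) are shown because both genes were called lower in EXP on day 4. Capitals mark the motif match in each, which lies on the opposite strand.
Csf1: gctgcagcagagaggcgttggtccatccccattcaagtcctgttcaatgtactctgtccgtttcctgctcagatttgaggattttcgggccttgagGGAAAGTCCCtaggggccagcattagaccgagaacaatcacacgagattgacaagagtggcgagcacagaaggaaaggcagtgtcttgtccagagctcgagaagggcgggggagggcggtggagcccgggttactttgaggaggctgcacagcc
Ccl19: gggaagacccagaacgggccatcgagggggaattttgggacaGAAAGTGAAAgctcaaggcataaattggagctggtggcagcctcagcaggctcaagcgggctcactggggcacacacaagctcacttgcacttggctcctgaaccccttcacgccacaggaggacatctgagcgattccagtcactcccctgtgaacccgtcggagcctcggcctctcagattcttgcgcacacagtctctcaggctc
The Csf1 window holds a match to the NF-kB consensus at position -154, counted from the start, and 7.3% of 32851 windows of the same length hold at least 1. The Ccl19 window holds a match to the interferon-stimulated element at position -208, which 3.0% of windows hold. Neither window holds AP-1 (TGANTCA), C/EBP (TTNNGNAA) or STAT (TTCNNNGAA), which 6.7%, 36.8% and 7.0% of windows hold on either strand. The Ccl8 window (chr11:82114935-82115184, plus strand) holds TATAAA at position -32, found in 12.4% of windows, and none of the other motifs. These matches are letters in a window and no measure of binding, and no relation between them and the changes was tested.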

How the data were processed

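RNA was measured in 22 libraries of sorted mouse fibroblasts by ultra-low-input paired-end sequencing (reads of 150 bases), per the labels' protocols. The authors deposited 1 table that gives, for each Ensembl identifier and library, a raw count with no normalization. Trimming with Trimmomatic and the build mm39 are named in the submitters' processing notes, without a version. The aligner, the counter, its annotation and the use of strand are not given in the sources used here. GENCODE M21 named 52081 of 55414 identifiers, and lengths are those of the longest coding transcript. 0 columns belonged to no sample.

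Counts were analysed in R 4.3.3 with edgeR 4.0.16: TMM scaling, filterByExpr on the 6 groups (minimum count 10), 17554 genes kept, and a robust quasi-likelihood fit with 1 mean per group and 16 residual degrees of freedom. The call was an adjusted p under 0.05 (Benjamini-Hochberg over all tested genes). The pipeline was tested on simulated data. Log2 CPM for correlations used a prior count of 2. The floor of 3 counts was 0.080 to 0.155 CPM, which covers counting error only, as no molecular identifiers mark single molecules. Totals of 21461294 to 30210204 counts make counting error small beside replicate spread except for Ccl5. Replicates differed by more than sampling noise, and none was merged.

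Alternatives were DESeq2 1.42.0, its size factors, library totals, no filter, a replicate block, the library split as a covariate or 1 side of it, single days, each library left out, and, chosen after seeing the data, Ccl19 summed with its copies. Members and lists were chosen with earlier results of these data known. Besides the 8 members, genes were named as the up to 3 called genes of each list and day with the smallest p and at least 1 CPM, the 3 genes most correlated with each member, and markers. Other genes named from the marker and receptor lists were chosen after their values were seen. Some genes of the lists are counted in them but not reported here by name.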

Additional observations from a re-analysis of the deposited data

Results flagged for a closer look

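A test of the difference between days picked out 3 of the 8 genes, by edgeR's quasi-likelihood test adjusted over 17554 genes. The EXP effect on Ccl8 was negative on day 1 (log2 fold change -1.08, EXP lower in 4 of 5 libraries than every CTRL library) and positive on days 2 and 4 (1.06 and 0.98), with an adjusted p of 0.0186. That on Csf1 was 0.32, -0.31 and -1.11 on days 1, 2 and 4, with an adjusted p of 0.00858. That on Ccl5, at 4 to 34 counts a library, was -2.43, -0.42 and 0.08, with an adjusted p of 0.0348. The share of all tested genes picked out in this way was 8.64%. Of 24 sets of 4 or 5 libraries examined for a single library far from the others, 0 held one, where chance picks about 1 in 20. Groups of 3 libraries, which are both arms on day 2 and EXP on day 4, were not examined. The high values of day 4 EXP replicate 2 were therefore outside this search.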

How the results depend on the processing

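Csf1 on day 4 and Il34 on day 1 kept their calls under every alternative run. Genes called changed by over 1.5 times as follows. On day 1 there were 2218 within the high side of the library split, against 5003. On day 2 there were 4632 with library totals, against 2365. On day 4 there were 1129 within the low side and 1101 with the day's libraries alone, against 3962. For the difference between days there were 2609 with DESeq2 and 392 with the replicate block, against 1517, for the change within EXP 1347 with the replicate block, against 2478, and within CTRL 525 with DESeq2, 163 with library totals, 22 with the split as a covariate and 1 with the replicate block, against 53.
Members called on day 1 were 2 without the filter and 2 within the high side, against 4. On day 2 they were 2 with library totals, 1 with the replicate block and 1 with the day's libraries alone, against 0. On day 4 they were 5 with library totals, 1 within the low side and 1 with the day's libraries alone, against 3. For the difference between days they were 1 without the filter and 1 with the replicate block, against 3. The cause was not tested, except that single days and sides of the split hold fewer libraries.
Without each library in turn, genes called ran from 4020 to 4790 on day 1, 895 to 2152 on day 2, 1630 to 5011 on day 4, 893 to 2552 for the difference between days, 1297 to 3342 within EXP and 5 to 84 within CTRL. Members called ran from 2 to 4 on day 1, 2 to 4 on day 4, 2 to 4 for the difference between days and 1 to 5 within EXP.
Signs turned only in values that were not called. With library totals, the day 2 log2 fold changes of Ccl5 and Csf1 were 0.0174 and 0.15. Ccl5 on day 4 was -0.0226 with the replicate block and -0.15 to 0.50 without each library. Ccl7 was -0.0788 on day 2 and -0.43 on day 4 without EXP replicate 2 of the day, in ranges of -0.0788 to 0.62 and -0.43 to 0.71. Ccl11 on day 4 was 0.12 without CTRL replicate 2, 0.05 without EXP replicate 1 and 0.01 without EXP replicate 3, in a range of -1.20 to 0.12. Library totals moved the median of all tested genes to 0.21, 0.49 and 0.36 on days 1, 2 and 4, and the share of higher among called genes to 66.2%, 90.5% and 80.8%, from 47.8%, 58.3% and 60.3%.
Replicate numbers did not pair the libraries: 3 of 10 same-numbered pairs deviated together at a correlation over 0.1, and 9 of 20 libraries correlated best with their own number. With the replicate block, Ccl2 was called on day 2 (adjusted p = 0.0172) and day 4 (0.0109) and Ccl7 on day 1 (0.0438), and the difference between days was not called for Ccl5 (0.189) or Csf1 (0.0756). Within EXP, the change over days was called for Ccl2 (0.0429) and not for Ccl5 (0.162) or Csf1 (0.112), and no other call on a member changed with the block.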
